A study of Mus musculus with 12 samples.

Results

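Resident biliary epithelial cells (BEC) were compared with early hepatocytes across all genes, using 3 bulk RNA-seq libraries of each group among the 12 libraries of a mouse liver series. Members were chosen by the sample labels alone. The early libraries (labelled Rep_early) hold EGFP+ Cd24- Epcam- cells, and the BEC libraries hold EGFP- Epcam+ cells. All mice were labelled WT and had been given AAV8-TBG-Cre, a viral vector that makes Cre recombinase from a hepatocyte promoter, so that hepatocytes and their descendants carry EGFP. A diet with 0.1% DDC (3,5-diethoxycarbonyl-1,4-dihydrocollidine), a compound that injures bile ducts, began 1 week after the vector and lasted 8 weeks. Both groups therefore come from injured livers, and no uninjured cells entered the comparison. The other 6 libraries, EGFP+ cells with Cd24 alone (intermediate) or with Cd24 and Epcam (full), entered the filter on low counts and the estimate of the spread and no comparison. The labels do not say which reporter allele gave EGFP, how many animals stand behind a library, or whether replicates are separate animals, so p-values measure the spread between these libraries, which may be technical. Hepatocytes that the vector did not reach leave EGFP- descendants, which the BEC gate would admit if they were Epcam+, and their number was not measured.

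Hepatocytes and cholangiocytes, the biliary epithelial cells, are the epithelial cell types of the liver and arise from a common embryonic progenitor. Hepatocytes secrete plasma proteins and bile acids and carry out urea, glucose, lipid and drug metabolism under factors such as HNF4A and C/EBP alpha. Cholangiocytes line the bile ducts, alkalinise bile through the secretin receptor, CFTR and anion exchange, sense flow with a primary cilium, and depend on factors such as SOX9. The comparison asks how far apart these identities stand in the same injured liver, which are the ends between which hepatocyte conversion to biliary cells is measured.

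Total counts were 16783030 to 19399934 in the early libraries and 17346269 to 18201429 in the BEC libraries. Levels below are CPM, counts per 1000000 of the library size after TMM scaling (a factor that aligns the bulk of genes between libraries), and are not corrected for gene length. A count of 3, treated as the floor of detection, corresponds to 0.237 to 0.273 CPM in early and 0.137 to 0.145 CPM in BEC, a limit that covers counting error only. Mitochondrially encoded genes held 6.0%, 11.4% and 5.45% of the counts in early and 3.43%, 2.58% and 2.64% in BEC.

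The sort markers Epcam and Cd24a followed the gates, while the EGFP gate, which separates the groups by origin, was not checked here. Epcam, the adhesion molecule used for sorting, was at 0.633, 0.818 and 0.324 CPM in the early libraries and at 846, 907 and 844 CPM in the BEC libraries. Cd24a, the second surface marker, was at 2.77, 5.55 and 1.29 CPM in early and at 1300, 1002 and 918 CPM in BEC. The hepatocyte marker Alb (albumin) was at 72049, 74698 and 73775 CPM in early and at 1650, 1422 and 1888 CPM in BEC. Each marker thus separated the groups without overlap, while Alb was still counted in every BEC library.

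Of 16210 genes tested, 11842 (73.1%) differed between BEC and early by edgeR's quasi-likelihood test at a Benjamini-Hochberg adjusted p under 0.05, a threshold used throughout. In BEC 6491 genes were higher (40.0%) and 5351 lower (33.0%) (median log2 fold change 0.14 over the genes tested). The libraries of the groups did not overlap for 12103 genes (74.7%), 6680 higher in BEC (41.2%) and 5423 lower (33.5%). These shares are the background against which each gene group below is read. In bulk libraries, fewer cells with a transcript and less of it per cell cannot be told apart. The gene lists hold 1019 genes of the table, of which 954 passed the filter on low counts, and counts below are of members that passed. A member that passed only through the group where it is high had to differ. A log2 fold change of at least 1 was fitted for 4362 of the genes higher in BEC (26.9%) and for 3185 of those lower (19.6%), one of at least 2 for 2832 (17.5%) and 1698 (10.5%), and one of at least 5 for 1226 (7.56%) and 591 (3.65%). Changes of at least 8 were fitted for 392 genes higher (2.42%) and 17 lower (0.105%). With genes at the floor of a group set to the smallest fold that the floor allows, the counts at 5 were 614 and 486, and at 8 they were 57 and 0.

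Directions here are relative to the TMM scale. The 50 genes with the most counts held 33.5% ± 2.39 of the counts in early and 15.6% ± 0.938 in BEC (SD, n = 3 each; exact 2-sided permutation p 0.1, the smallest that 3 against 3 allows). When libraries were scaled by their total counts alone, the median moved from 0.14 to 1.0 on the log2 scale, and 10669 of 13293 calls (80.3%) were higher in BEC, against 54.8% with TMM. A gene whose sign turns with total counts is marked as such where its change is given. Calls gained with a replicate block are not marked beside the genes and are listed with the dependence on processing below. Of 16 dissociation stress genes, such as Fos, Jun and Atf3, 7 were higher in BEC and 3 lower (median 0.64), and with total counts 11 were higher and 0 lower. They summed to 3787 to 6391 CPM in early and 4207 to 8010 CPM in BEC, ranges that overlap, and held 0.343% ± 0.0915 of the counts in early and 0.766% ± 0.237 in BEC (SD, n = 3 each). Atf3 itself was not called (-0.07, sign turns with total counts) and was lowest in replicate 1 of both groups (43.1 and 54.0 CPM). The part of dissociation in the other results was not tested.

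**Figure D1:**
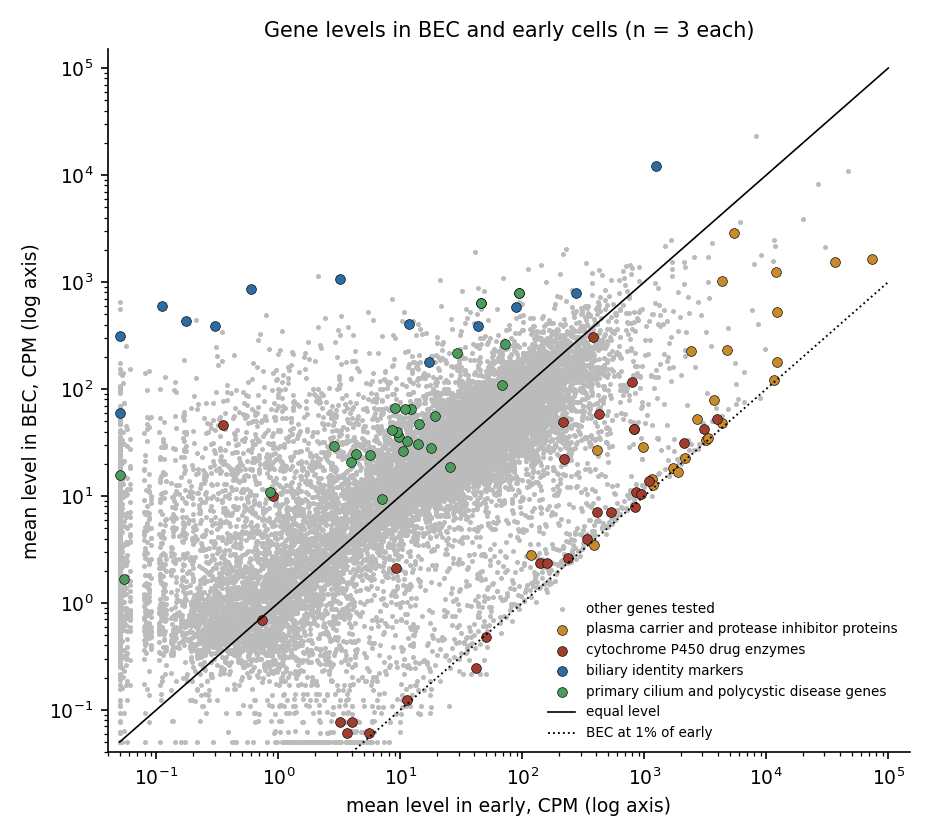
Mean level of each gene tested in early (horizontal, CPM, log axis) and BEC (vertical, CPM, log axis), n = 3 libraries each, with genes at 0 drawn at 0.05 CPM and 4 gene groups in colour. Plasma protein and cytochrome P450 genes lie below the line of equal level, many of them along the dotted line where BEC holds 1% of the early level, and biliary markers lie above it.

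Among the genes that took the most counts in early were secreted products of the hepatocyte. Trf, the plasma iron carrier transferrin, was at 43004, 31999 and 35661 CPM in early and at 1718, 1377 and 1527 CPM in BEC (log2 fold change -4.58, SE 0.22, adjusted p 3.66e-10). Apoe, a lipoprotein component, was at 36967, 26257 and 28148 CPM in early and at 1735, 2215 and 2454 CPM in BEC (-3.83, SE 0.19, adjusted p 5.17e-10). Alb, given above, fell by 5.47 on the log2 scale (SE 0.20, adjusted p 3.10e-11), which is 44.5-fold. Early and BEC libraries stood far apart for all 3 genes. C3, the central complement protein, differed less, at 29910, 24291 and 25902 CPM in early and 8375, 8587 and 7816 CPM in BEC, so that it was among the 10 genes with the most counts in both groups.

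In BEC the most counts fell on Clu and Spp1. Clu encodes the secreted chaperone clusterin and was at 9321, 7991 and 7445 CPM in early and 26572, 22519 and 20603 CPM in BEC (log2 fold change 1.49, SE 0.16, adjusted p 1.76e-06). Spp1, which encodes the matrix glycoprotein osteopontin, was at 868, 1032 and 1811 CPM in early and 14481, 11063 and 10889 CPM in BEC (3.29, SE 0.26, adjusted p 5.93e-08). The ferroxidase gene Cp (ceruloplasmin) was also among the 10 and was lower in BEC by 0.92 on the log2 scale, with a change of -0.05 under total counts. The nuclear RNA Malat1 was at 1082, 2536 and 1317 CPM in early and 2060, 2787 and 2517 CPM in BEC and did not pass the test (0.58, adjusted p 0.0571), but did with DESeq2 (0.58), with no filter on low counts (0.61), with total counts (1.45) and without early replicate 2 (1.03) or BEC replicate 1 (0.69).

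The 10 largest fitted rises, by a rule that asked for at least 10 CPM in each library of the higher group and no overlap, were in genes with 0 counts in all 3 early libraries, for which the fitted fold is no bound and sets no order against genes with a few counts. Mmp7, the epithelial metalloprotease matrilysin, was at 771, 617 and 569 CPM in BEC, at least 2389-fold higher against a floor of 3 counts per early library. Gabrp, a subunit of the GABA type A receptor, was at 643, 471 and 569 CPM (at least 2055-fold higher). The transmembrane mucin Muc1 was at 400, 267 and 281 CPM (at least 1157-fold higher). The others of the 10 were Mal, Lrrn1, Esrp1, Grhl2, Atp10b, Asz1 and Rassf9, between 66.1 and 104 CPM on average in BEC and at least 242-fold to 379-fold higher. Krt19, with 4 counts in early, stood at 474, 630 and 673 CPM in BEC, between Mmp7 and Gabrp when set against the same floor, and many further genes with few counts in early stood between Muc1 and Mal, among them Cftr, Dmbt1, Kcnq1, Wnt7b, Kcnn4, Kcne3 and Klf5.

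The largest falls ended at low but mostly nonzero counts. The imprinted RNA H19 was at 61.7, 48.4 and 41.9 CPM in early and 0.0963, 0.0932 and 0.457 CPM in BEC (log2 fold change -7.82, SE 0.49, adjusted p 4.70e-09). Urad, an enzyme of uric acid breakdown, was at 44.3, 36.6 and 54.9 CPM in early and 0.145, 0.186 and 0.320 CPM in BEC. Inhbc, the activin beta C subunit, was at 36.7, 45.6 and 63.9 CPM in early and 0.0482, 0.280 and 0.548 CPM in BEC. The other 7 by the same rule were Spink1, Cyp2c54, Cebpe, Adh7, Rtp3, Cyp2d37-ps and Cyp2d13, of which Cyp2c54, Cyp2d37-ps and Cyp2d13 belong to multigene families whose shared reads make their counts uncertain.

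Absence at this depth was lopsided. In early, 200 genes were at the floor (at most 3 counts in each library) while each BEC library held at least 10 CPM, and 194 of them carry names other than gene model identifiers. The reverse held for 4 genes, of which Spink1 (a trypsin inhibitor) and Cebpe (a C/EBP factor) are named genes. Spink1 was at 18.3, 15.5 and 19.1 CPM in early, with 6 counts over the 3 BEC libraries, a ratio of 189 (95% exact interval 86.4 to 517, counting error only). The count of 4 became 19 without BEC replicate 3 and 7 without BEC replicate 2.

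Biliary identity markers were higher in BEC throughout: all 15 rose, with a median log2 fold change of 5.09. Krt19, a keratin of ducts, had 4 counts over the 3 early libraries and was at 474, 630 and 673 CPM in BEC, a ratio of 5349 (95% exact interval 2089 to 19632, counting error only). Krt7, the other ductal keratin, was at 0.395, 0.273 and 0.243 CPM in early and 397, 393 and 373 CPM in BEC (10.28, SE 0.50, adjusted p 3.66e-10). The stem cell surface protein gene Prom1 was at 11.9, 8.73 and 14.5 CPM in early and 437, 370 and 395 CPM in BEC (5.09, SE 0.21, adjusted p 7.46e-11). Keratin and surface marker levels in BEC varied little beside the size of these differences. Sorbs2, a cytoskeletal adaptor, changed least in the list, from 249 to 334 CPM in early to 715 to 830 CPM in BEC (1.49).

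Transcription factors tied to the ducts were mostly present in early hepatocytes at a lower level. Of 19 tested, 18 rose in BEC and 1 fell, with a median log2 fold change of 2.89 (2.49 with genes at the floor at their bound). Sox9, the ductal and progenitor factor, was at 31.6, 51.7 and 46.8 CPM in early and 319, 422 and 421 CPM in BEC (3.16, SE 0.18, adjusted p 1.50e-09). Sox4, which acts with Sox9 in duct development, was at 36.4, 35.2 and 65.1 CPM in early and 503, 527 and 633 CPM in BEC (3.60). Both were thus well above the floor in every early library.

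Others came close to being absent from early. Ehf, an epithelial ETS factor, was at 2.14, 0.0909 and 0.162 CPM in early and 491, 482 and 508 CPM in BEC (9.21, SE 0.56, adjusted p 3.52e-09). Klf5, a Krüppel-like factor of ductal and gut epithelium, had 2 counts in early, both in 1 library, and was at 118, 133 and 151 CPM in BEC, a ratio of 2422 (95% exact interval 670 to 20000). Foxj1, the regulator of motile cilia, was at 0.554, 2.18 and 1.21 CPM in early and 153, 236 and 244 CPM in BEC (7.35). Tead2 (4.62) and Runx1 (4.80) also rose by over 4 on the log2 scale. Elf3 (2.97), Glis3 (2.89), Onecut1 (1.95), Gata6 (1.85), Tead1 (1.83), Hes1 (1.20), Elf1 (0.89), Tead3 (0.56) and Id1 (0.54) rose by less (the Id1 call was lost without BEC replicate 1, 2 or 3, at 0.49, 0.58 and 0.57, and without early replicate 1 or 3, at 0.32 and 0.60), and Hey1, at 0.915, 1.63 and 2.06 CPM in BEC, rose from 4 counts in early. Id3, an inhibitor of basic helix-loop-helix factors, went the other way, from 175, 231 and 229 CPM in early to 46.4, 46.8 and 57.6 CPM in BEC (-2.07, SE 0.17, adjusted p 6.31e-08). Sox11 was too low to test.

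**Figure D2:**
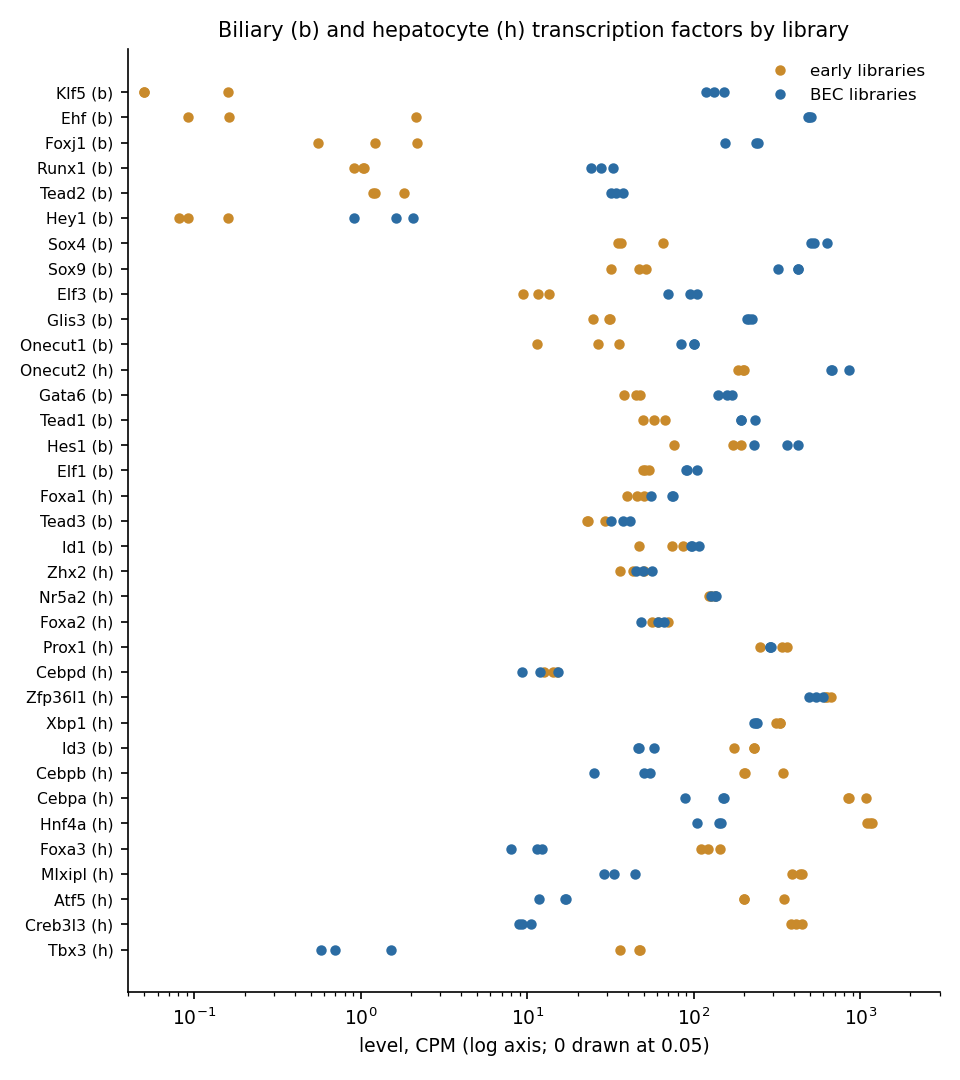
Level of the biliary (b) and hepatocyte (h) transcription factors named in the text in each library (CPM, log axis, 0 drawn at 0.05), early in ochre and BEC in blue, n = 3 libraries each. Klf5, Ehf and Hey1 sit lowest in early, Prox1, Nr5a2 and Foxa2 overlap, and Creb3l3 and Tbx3 show the widest gaps in favour of early.

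Hepatocyte transcription factors did not fall as a block: of 18 tested, 10 were lower in BEC, 2 higher and 6 did not pass the test, with a median log2 fold change of -0.76 that became 0.11 with total counts (8 lower, 9 higher). Hnf4a, the central nuclear receptor of hepatocyte identity, was at 1175, 1150 and 1099 CPM in early and 105, 141 and 145 CPM in BEC (-3.13, SE 0.13, adjusted p 7.87e-11). Cebpa was at 854, 847 and 1085 CPM in early and 89.0, 152 and 150 CPM in BEC (-2.83, SE 0.20, adjusted p 1.30e-08). Creb3l3, a liver factor bound to the endoplasmic reticulum, was at 447, 383 and 412 CPM in early and 9.30, 8.95 and 10.5 CPM in BEC (-5.43, SE 0.12, adjusted p 2.47e-12). Early and BEC libraries stood far apart for all 3. The pericentral factor Tbx3 (-5.53), the stress factor Atf5 (-4.03), the carbohydrate-response factor Mlxipl (-3.57), Foxa3 (-3.56), Cebpb (-2.52) and Xbp1 (-0.46, sign turns with total counts) were lower too.

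Some hepatocyte factors stood at like levels in both groups or above them in BEC. Prox1, a factor of the embryonic liver bud and of hepatocytes, was at 250, 337 and 362 CPM in early and 285, 287 and 290 CPM in BEC, overlapping ranges (-0.14, adjusted p 0.375, sign turns with total counts; called without early replicate 1, at -0.28). Nr5a2, a receptor that drives bile acid genes, was at 127, 134 and 123 CPM in early and 134, 126 and 136 CPM in BEC (0.05, adjusted p 0.655; called with total counts, at 0.91). Foxa2 (-0.09), Cebpd (-0.21) and Zfp36l1 (-0.23), whose signs turn with total counts, and Zhx2 (0.22; called with total counts, at 1.08, and without early replicate 3, at 0.35) did not pass the test either. Onecut2 was at 183, 199 and 196 CPM in early and 854, 680 and 669 CPM in BEC (1.93, SE 0.11, adjusted p 1.55e-09), and Foxa1 was higher by 0.59 (adjusted p 0.00186). Libraries of the groups did not overlap for either.

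Nuclear receptors, which switch metabolic genes by ligand, were lower in BEC for 16 of 24, higher for 5 and not called for 3 (median -1.06; with total counts 11 lower, 8 higher and a median of -0.19). Nr1i3 (CAR, the drug sensor) was at 55.5, 33.3 and 31.3 CPM in early and 0.482, 0.419 and 1.01 CPM in BEC (-5.96, SE 0.36, adjusted p 3.46e-09). Ppara, the fatty acid sensor, was at 109, 139 and 155 CPM in early and 2.36, 3.87 and 4.39 CPM in BEC (-5.24). The shared partner Rxra was at 732, 687 and 819 CPM in early and 66.8, 79.6 and 90.1 CPM in BEC (-3.24), and the bile acid receptor Nr1h4 fell by 2.96. Vdr, the vitamin D receptor, ran against the list, with 0 counts in early and 19.3, 13 and 13.6 CPM in BEC (at least 56.1-fold higher). Ppard (1.89), Nr2f2 (1.4), Rarb (0.93) and Rara (0.55) were higher in BEC as well.

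Promoter sequence was examined because the hepatocyte genes moved together while Hnf4a and Cebpa fell. Promoters were the 250 bases before each annotated start in RefSeq on GRCm38.p6, searched on both strands for fixed letters. In the following windows of 90 bases, written 5′ to 3′ on the gene's strand, capitals mark a match. They were chosen after the values were seen, as examples of genes with a match. The AP-1 examples are genes higher in BEC. The AP-1 letters were in 9.21% of promoters of genes lower by a log2 fold change of 5 or more, and in 7.55% for those higher.
Alb, HNF1 letters GTTAATNAT, chr5:90460780-90460869, plus strand: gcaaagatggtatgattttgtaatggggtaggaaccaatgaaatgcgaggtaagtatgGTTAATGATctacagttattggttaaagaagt
Fga, the same letters on the other strand, chr3:83026063-83026152, plus strand: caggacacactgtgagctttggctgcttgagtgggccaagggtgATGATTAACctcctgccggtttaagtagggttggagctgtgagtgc
Cyp8b1, HNF4 letters CAAAGTCCA, chr9:121916324-121916413, minus strand: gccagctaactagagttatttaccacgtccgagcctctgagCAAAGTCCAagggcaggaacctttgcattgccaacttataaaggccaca
Cyp2c70, the HNF4 letters, chr19:40187302-40187391, minus strand: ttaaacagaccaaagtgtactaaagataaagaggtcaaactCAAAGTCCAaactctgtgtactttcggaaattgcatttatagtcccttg
Mmp7, AP-1 letters TGANTCA, chr9:7691985-7692074, plus strand: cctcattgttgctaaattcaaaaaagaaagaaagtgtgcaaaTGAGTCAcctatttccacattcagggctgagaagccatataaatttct
Prom1, the AP-1 letters, chr5:44101777-44101866, minus strand: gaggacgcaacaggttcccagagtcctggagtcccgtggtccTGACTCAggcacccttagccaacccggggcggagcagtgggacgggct

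The HNF1 letters were found in 0.737% of all 32851 promoters in the table and in 0.588% of the 14804 promoters of genes tested. Among the genes lower in BEC by a fitted log2 fold change of 5 or more, 421 of 591 matched the table by symbol, with 521 promoters, and 3.65% held the HNF1 letters. For those higher by as much, 825 of 1226 genes matched, with 1059 promoters, and 0.850% held them. The HNF4 letters were in 2.88% of the first set and 0.378% of the second, against 0.446% of the promoters of genes tested. The C/EBP letters TTGCNNAA were in 18.4% and 8.31% (8.06% of those tested), and the AP-1 letters in 9.21% and 7.55% (4.94%). For the TEAD letters GGAATG the shares were 13.1% and 12.9% (11%), and for the GRHL letters ACCGGTT they were 0% and 0.944% (1.22%). Promoters of the genes lower in BEC had 50.4% G and C, against 58.3% for those higher and 59.2% for all tested, and the part of base composition in these shares was not tested. A match is a description of letters, and binding was not measured.

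Regulators of epithelial character split between genes absent from early and genes shared. Of 14 tested, 12 were higher in BEC, 1 lower and 1 not called (median 5.34, or 3.21 with genes at the floor at their bound). Grhl2, a Grainyhead factor of barrier epithelia, had 0 counts in early and was at 72.0, 65.2 and 69.1 CPM in BEC, at least 252-fold higher. Esrp1, an epithelial splicing regulator, likewise had 0 counts in early and was at 98.7, 88.0 and 89.1 CPM in BEC (at least 337-fold). Its relative Esrp2 ran the other way, at 167, 165 and 165 CPM in early and 64.0, 74.3 and 74.4 CPM in BEC (-1.23, SE 0.10, adjusted p 6.17e-08). Esrp1 and Esrp2 therefore differed in opposite directions. The protease inhibitor Spint1 was at 0.237, 0.364 and 0.324 CPM in early and 235, 246 and 255 CPM in BEC (9.62), while its relative Spint2 rose by 1.19 and its target protease gene St14 by 3.46. Grhl1 did not pass the test (-0.19, adjusted p 0.491, sign turns with total counts).

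The keratin genes Krt8 and Krt18 were already high in early. Krt8 was at 4084, 3318 and 3354 CPM in early and 1944, 2400 and 2596 CPM in BEC (-0.63, adjusted p 0.00196), and its partner Krt18 changed by -0.66 (adjusted p 0.000307), and both signs turn with total counts. Krt23 was higher in BEC by 2.69. Krt80 had 1 count in early and was at 11.8, 12.8 and 9.46 CPM in BEC. Of the 7 keratins tested, 4 were higher, 2 lower and 1, Krt20 (-0.38, adjusted p 0.597, sign turns with total counts), not called.

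Tight junction genes mostly rose, 15 of 18 higher and 2 lower (median 1.20), with an exchange among claudins, the strand proteins that set paracellular permeability. Cldn1 was at 140, 119 and 110 CPM in early and 1.30, 1.4 and 1.64 CPM in BEC (-6.40, SE 0.21, adjusted p 1.24e-11), and Cldn14 fell by 3.10. Cldn4 was at 33.3, 18.6 and 12.5 CPM in early and 475, 639 and 680 CPM in BEC (4.80, SE 0.33, adjusted p 1.39e-08). The groups did not overlap for any of these. Cldn6 (6.70), Cldn7 (3.36) and Cldn2 (1.65) were higher in BEC, Cldn8 had 0 counts in early and was at 36.3, 31.0 and 38.9 CPM in BEC (at least 130-fold higher), and Cldn3 rose by 0.26 (adjusted p 0.0452), a call lost with 6 libraries in the fit (0.21), with no filter on low counts (0.27), without BEC replicate 2 (0.25) or 3 (0.18) and without early replicate 2 (0.17) or 3 (0.26). Cldn12 was not called (-0.15, adjusted p 0.209, sign turns with total counts). The junction plaque genes Tjp1 (1.16) and Cgn (1.83) rose.

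Adherens junction and desmosome genes were higher in 12 of 19 and lower in 5 (median 1.17). Cdh1, E-cadherin, was at 301, 359 and 345 CPM in early and 1545, 1540 and 1422 CPM in BEC (2.16, SE 0.10, adjusted p 2.14e-10). Cdh2, N-cadherin, was at 191, 159 and 176 CPM in early and 39.0, 34.1 and 26.0 CPM in BEC (-2.41, SE 0.13, adjusted p 1.12e-09). The cadherins thus differed in opposite directions, as did the nectins: Nectin1 (-2.68) and Nectin3 (-2.17) fell, Nectin2 rose (1.17), and Nectin4 had 0 counts in early and was at 32.6, 28.8 and 31.2 CPM in BEC (at least 113-fold higher). Of desmosomal genes, Pkp3 (4.37), Dsg2 (1.38) and Dsp (0.81) rose, Perp fell by 1.53, Pkp2 changed by -0.55 (sign turns with total counts), and Dsc2 was not called (0.24, adjusted p 0.128), but was with total counts (1.11).

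Genes for ductal fluid and bicarbonate secretion were higher in 13 of 18 and lower in 4 (median 1.97; 14 higher and 2 lower with total counts). Cftr, the chloride channel, had 2 counts in early and was at 267, 258 and 229 CPM in BEC, a ratio of 4517 (95% exact interval 1250 to 37305). Sctr, the secretin receptor, had 1 count in early and was at 126, 98.4 and 97.7 CPM in BEC (ratio 3858, interval 692 to 152424). The calcium-activated channel Ano1 was at 0.158, 0.546 and 0.324 CPM in early and 365, 320 and 328 CPM in BEC (9.95, SE 0.27, adjusted p 4.40e-12). These channel and receptor genes were at or near the floor in each early library. Slc12a2, the basolateral chloride uptake carrier, was at 10.3, 11.4 and 9.23 CPM in early and 490, 419 and 390 CPM in BEC (5.40). Itpr3, the ductal inositol trisphosphate receptor, rose by 2.33, Itpr2 by 0.48, and Itpr1 changed by -0.45 (sign turns with total counts).

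Other members of the secretory list went against it or were flat. Slc10a2, which takes bile acids up at the apical face of ducts, was at 63.4, 124 and 103 CPM in early and 56.1, 53.5 and 50.5 CPM in BEC (-0.86, adjusted p 0.00119, sign turns with total counts). The water channel Aqp1 was at 3.01, 5.55 and 5.83 CPM in early and 2.17, 2.89 and 3.38 CPM in BEC and did not pass the test (-0.76, adjusted p 0.0956, sign turns with total counts), but did with 6 libraries in the fit (-0.81), with no filter on low counts (-0.74) and without early replicate 1 (-1.01). Kcnn2, a small-conductance potassium channel, fell by 3.70, and Sstr2, the somatostatin receptor that restrains ductal secretion, fell by 1.5. The bile acid receptor Gpbar1 was too low to test in either group. The anion exchanger Slc4a2 rose by 0.54, from 71.9 to 86.8 CPM in early to 111 to 122 CPM in BEC.

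Primary cilium and polycystic disease genes were higher in 25 of 26 (median 2.20). Pkhd1, the fibrocystin gene, was at 27.7, 52.0 and 58.8 CPM in early and 575, 658 and 694 CPM in BEC (3.80, SE 0.27, adjusted p 1.79e-08). Bicc1, an RNA-binding protein of the cilium pathway, was at 80.6, 105 and 96.1 CPM in early and 839, 786 and 738 CPM in BEC (3.07). Pkd2 (1.87) rose more than Pkd1 (0.69) on the log2 scale. Intraflagellar transport and motor genes moved the same way, with Ift122 (2.39), Kif3a (2.55) and Dync2h1 (2.86) higher. Nphp4 had 0 counts in early and was at 13.5, 17.0 and 16.7 CPM in BEC (at least 57.6-fold higher). The remaining member was lower in BEC.

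Integrins and the basement membrane they bind were mostly higher in BEC. Of 12 integrin genes, 11 rose and Itgb5 fell (-0.62, sign turns with total counts), with a median of 3.19. Itgb4, the hemidesmosome subunit, was at 0.633, 1.18 and 0.243 CPM in early and 276, 293 and 285 CPM in BEC (8.72, SE 0.39, adjusted p 1.51e-10). Itgb8 was at 0.791, 0.546 and 0.890 CPM in early and 144, 159 and 134 CPM in BEC (7.59). Itgb6, which with Itgb8 marks the integrins that release TGF beta, had 2 counts in early and was at 132, 103 and 108 CPM in BEC. The widely used subunit Itgb1 differed little by comparison, from 347 to 371 CPM in early to 447 to 514 CPM in BEC (0.41).

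Basement membrane genes were higher in 15 of 20 and lower in 3 (median 2.95). Lamb3, a chain of epithelial laminin, was at 2.37, 1.73 and 2.59 CPM in early and 241, 252 and 237 CPM in BEC (6.75), and Lama3, a second chain, rose by 6.44. The proteoglycan genes Agrn (3.15) and Hspg2 (5.62) rose. Col18a1, a collagen that hepatocytes make, was at 2120, 1725 and 1992 CPM in early and 351, 539 and 510 CPM in BEC (-2.06), and the nidogens Nid1 (-3.00) and Nid2 (-1.78) fell.

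Mucosal genes were split, with 7 of 13 higher and 4 lower (median 2.79, or 2.28 with genes at the floor at their bound). Beside Muc1, Dmbt1, a mucosal defence glycoprotein, had 1 count in early and was at 126, 172 and 223 CPM in BEC (ratio 6286, 95% exact interval 1128 to 248319). The trefoil gene Tff2 had 1 count in early and was at 25.2, 25.9 and 37.7 CPM in BEC, while Tff3 fell by 4.40. Pigr, which carries immunoglobulin A into bile and is textbook for mouse hepatocytes, was at 1150, 1435 and 1287 CPM in early and 27.3, 38.8 and 36.6 CPM in BEC (-5.24, SE 0.21, adjusted p 7.30e-11). Lcn2 was at 1323, 721 and 670 CPM in early and 1711, 1360 and 1077 CPM in BEC, with overlapping ranges (0.61, adjusted p 0.121; called with no filter on low counts, at 0.63, with total counts, at 1.48, and without early replicate 1, at 0.99).

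Annexins and S100 proteins gave 13 of 19 higher and 5 lower (median 1.27; 14 higher and 0 lower with total counts), and cytoskeletal genes 19 of 27 higher and 6 lower (median 0.92; 21 higher and 3 lower with total counts). Anxa3 was at 2.14, 1.46 and 1.62 CPM in early and 292, 270 and 265 CPM in BEC (7.30), whereas Anxa6 (-0.88) and Anxa7 (-1.01) were lower, calls lost with total counts (-0.01 and -0.14). The microvillus genes were exchanged: Vil1 (5.10), Ezr (3.83) and Msn (4.26) rose, and Rdx, the radixin of the hepatocyte canaliculus, was at 319, 343 and 385 CPM in early and 135, 145 and 142 CPM in BEC (-1.31). Actb did not pass the test (-0.15, adjusted p 0.407, sign turns with total counts).

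Notch pathway genes were higher in 13 of 16 and lower in 1 (median 1.30; with total counts 15 higher and 0 lower). The ligand Jag1 was at 15.3, 20.5 and 13.1 CPM in early and 291, 339 and 381 CPM in BEC (4.37, SE 0.18, adjusted p 6.16e-11), and the receptor Notch2 was at 125, 151 and 145 CPM in early and 306, 290 and 286 CPM in BEC (1.07). Notch1 overlapped between the groups (-0.08, adjusted p 0.801, sign turns with total counts). Of target genes, Hes1 (1.20), Heyl (3.73) and Nrarp (3.11) rose, and the glycosyltransferase gene Rfng fell by 0.87, a call lost with total counts (-0.00).

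YAP and TEAD target genes were higher in 15 of 19 and lower in 2 (median 1.42). Ccn2 was at 6.09, 11.2 and 8.58 CPM in early and 828, 618 and 619 CPM in BEC (6.33, SE 0.22, adjusted p 2.16e-11). Ankrd1 was at 1.19, 3.82 and 2.19 CPM in early and 304, 488 and 590 CPM in BEC (7.61). Ccn1, the textbook companion of Ccn2, was at 431, 793 and 871 CPM in early and 574, 1016 and 1221 CPM in BEC and was not called (0.42, adjusted p 0.278), but was with no filter on low counts (0.45) or with total counts (1.29). Nt5e (-3.17) and the EGF receptor ligand Areg (-3.54) were the members lower in BEC.

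Chemokine and cytokine genes were higher in 12 of 17 and lower in 4 (median 2.14; 13 higher and 3 lower with total counts). Cxcl5, a neutrophil attractant, was at 0.554, 0 and 0.0809 CPM in early and 479, 454 and 399 CPM in BEC (10.92, SE 0.59, adjusted p 9.78e-10). Cx3cl1 (3.82), Cxcl16 (3.15), Lif (3.71) and Ccl2 (2.14) rose, and Tnf, with 2 counts in early, was at 27.6, 41.7 and 49.9 CPM in BEC. Cxcl14 (-5.13), Cxcl10 (-2.23) and Mif (-2.02) fell, and Il18 changed by -0.69 (sign turns with total counts).

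Of 29 growth factor and receptor genes, 14 were higher and 8 lower (median 0.46), beside 40.0% higher and 33.0% lower over all genes tested. With total counts 21 were higher and 6 lower. Among receptors, Erbb2 was at 0.316, 0.637 and 0.890 CPM in early and 115, 126 and 132 CPM in BEC (7.65, SE 0.21, adjusted p 4.40e-12), and Igf1r was at 0.316, 0.818 and 0.567 CPM in early and 103, 124 and 120 CPM in BEC (7.68, SE 0.41, adjusted p 9.39e-10). Egfr was at 256, 173 and 439 CPM in early and 104, 96.6 and 93.4 CPM in BEC (-1.57, SE 0.25, adjusted p 6.51e-05). Erbb2 and Egfr, members of a single receptor family, thus differed in opposite directions. Fgfr3 was at 58.2, 75.5 and 73.2 CPM in early and 1004, 1076 and 1186 CPM in BEC (3.98), whereas Fgfr4, the hepatocyte FGF receptor, was not called (-0.15, adjusted p 0.163, sign turns with total counts). Of ligands, Pdgfd (7.89) and Pdgfb (3.64) rose, and Igf1 (-2.46) and Fgf21 (-6.17), hormones made by hepatocytes, fell.

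The cell cycle list was higher in 18 of 26 and lower in 0, with a median of 1.29 (with total counts 25 higher and 0 lower, median 2.15). Mki67, a marker of cycling cells, was at 16.4, 9.0 and 38.8 CPM in early and 81.8, 78.2 and 106 CPM in BEC (2.05, SE 0.41, adjusted p 0.000462). Ccnd1 was at 123, 154 and 177 CPM in early and 378, 375 and 424 CPM in BEC (1.37). Among inhibitors of the cycle, Cdkn2a had 0 counts in early and was at 6.26, 8.53 and 9.37 CPM in BEC (at least 29.5-fold higher), and Cdkn2b rose by 5.01, whereas Cdkn1a was not called (-0.20, adjusted p 0.556, sign turns with total counts), but was without early replicate 3 (-0.53).

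**Figure D3:**
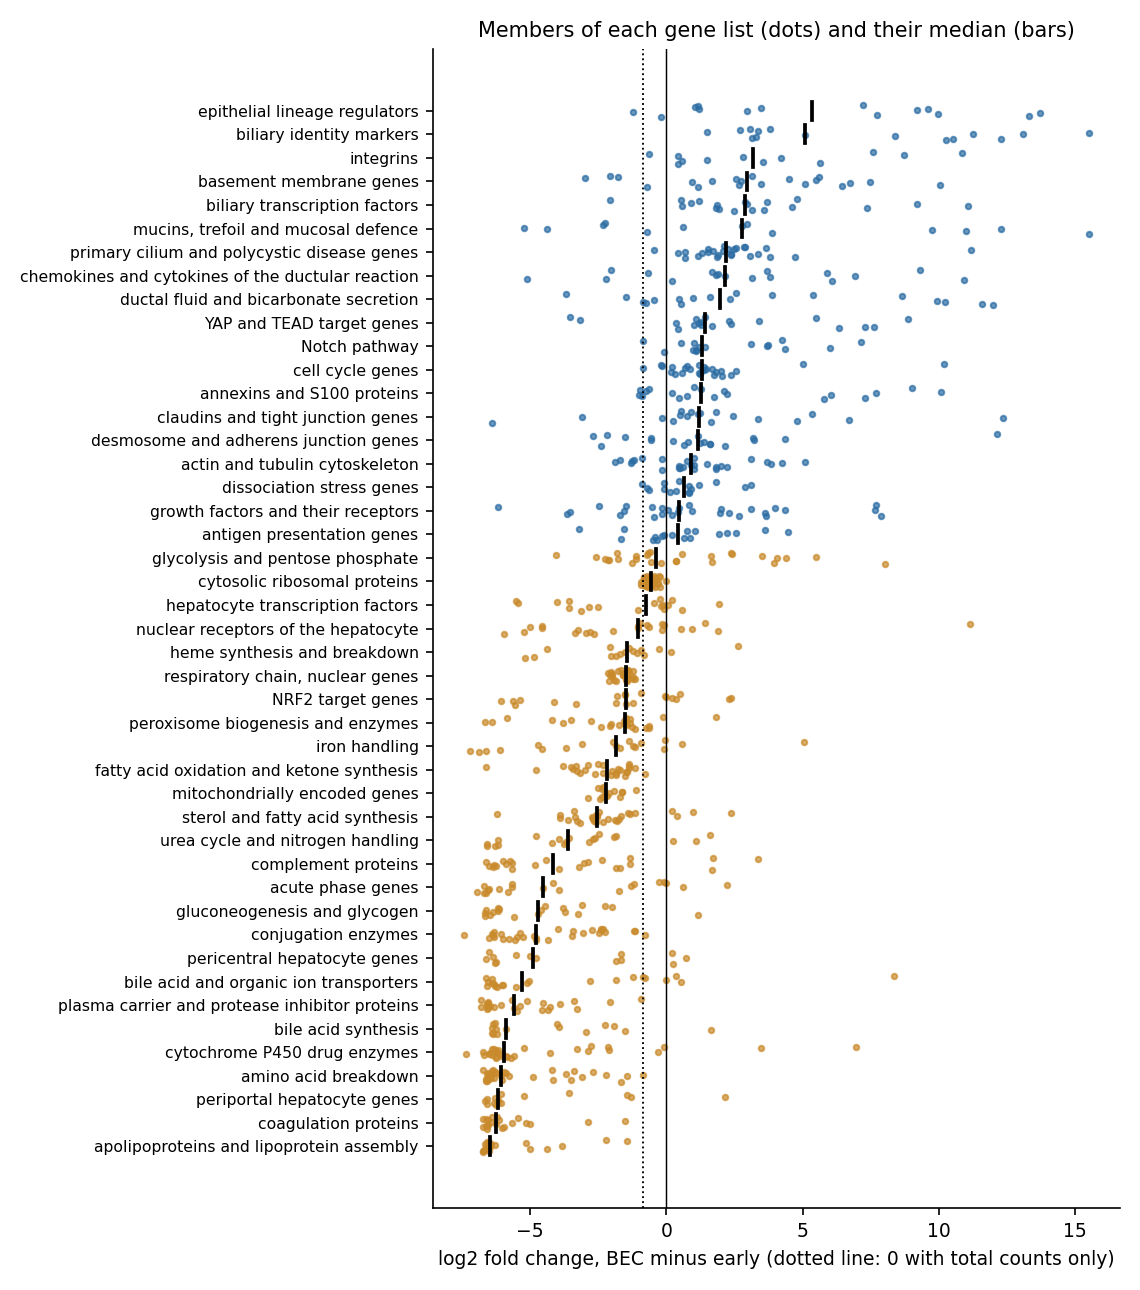
Log2 fold change (BEC minus early, TMM scale) of every tested member of each gene list with 12 or more tested members (markers of other cell types left out), 1 dot per gene, with a bar at the list's median, lists with a median above 0 in blue and below 0 in ochre, and genes at the floor at their fitted value, which is no bound. The dotted line marks where 0 falls when libraries are scaled by total counts alone and many hepatocyte lists have medians below -4.

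Secreted plasma proteins were lower in BEC without exception in 3 lists. All 25 carrier and protease inhibitor genes fell (median -5.58), all 21 coagulation genes (median -6.24) and all 18 apolipoprotein and lipoprotein genes (median -6.49). The carrier list took 13.4% ± 0.752 of all counts in early and 1.21% ± 0.0906 in BEC, and the lipoprotein list 4.04% ± 0.321 and 0.351% ± 0.0570 (SD, n = 3 each). Apoa1, the main protein of high-density lipoprotein, was at 9098, 8937 and 8664 CPM in early and 48.1, 75.6 and 125 CPM in BEC (-6.75, SE 0.32, adjusted p 2.78e-10). Fga, the fibrinogen alpha chain, was at 7282, 4939 and 4530 CPM in early and 198, 177 and 146 CPM in BEC (-5.01). Ambp, the precursor of alpha-1-microglobulin, kept more, at 4915, 3828 and 4238 CPM in early and 943, 1024 and 1112 CPM in BEC (-2.08). Members thus fell to different degrees, from a log2 fold change of -0.92 for Cp to -6.81 for Itih3.

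Complement genes were lower in 21 of 24 (median -4.17). Hc, complement component 5, fell by 6.38. The membrane regulators Cd55 and Cd46, which protect a cell from complement, were the members higher in BEC, with Cd55 at 0.316, 0.546 and 1.05 CPM in early and 7.56, 6.8 and 5.35 CPM in BEC (3.35) and Cd46 higher by 1.72.

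Nitrogen metabolism fell with few exceptions. Urea cycle and nitrogen genes were lower in 17 of 20 and higher in 2 (median -3.63), and amino acid breakdown genes were lower in all 33 (median -6.06). Cps1, the first enzyme of the urea cycle, was at 4285, 5939 and 6794 CPM in early and 37.3, 63.5 and 117 CPM in BEC (-6.28, SE 0.49, adjusted p 5.04e-08). Aldh18a1 (1.60), an enzyme of proline synthesis, was higher in BEC, and Glul, glutamine synthetase of pericentral hepatocytes, was at 153, 84.6 and 84.7 CPM in early and 118, 132 and 135 CPM in BEC (0.26, adjusted p 0.230; called with total counts, at 1.13, and without early replicate 1, at 0.60). The amino acid gene Amt changed by -0.85, a sign that turns with total counts.

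Bile acid genes fell at synthesis and at both membranes. Synthesis genes were lower in 14 of 15 (median -5.89), with Cyp46a1, the cholesterol hydroxylase of brain, the member higher (1.64). Cyp7a1, the rate-limiting enzyme, was at 199, 289 and 321 CPM in early and 1.25, 3.40 and 5.03 CPM in BEC (-6.37, SE 0.46, adjusted p 2.14e-08). Transporter genes were lower in 18 of 22 and higher in 3 (median -5.31, or -4.91 with genes at the floor at their bound). The canalicular pump Abcb11 was at 527, 546 and 535 CPM in early and 3.56, 6.29 and 8.91 CPM in BEC (-6.42), and the sinusoidal carrier Slc10a1 fell by 6.21. Slco3a1 ran against the list, at 1.34, 1.09 and 0.809 CPM in early and 310, 380 and 366 CPM in BEC (8.34, SE 0.35, adjusted p 9.99e-11), with Abcb1a (0.54) and Slco2a1 (0.37) also higher. The Abcb1a call was lost without BEC replicate 2 (0.44) or 3 (0.50) and without early replicate 1 (0.48) or 3 (0.47), and the Slco2a1 call with 6 libraries in the fit (0.32), without BEC replicate 1 (0.32) or 3 (0.38) and without early replicate 1 (0.26) or 3 (0.35).

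Drug enzymes were lower in 27 of 30 cytochrome P450 genes (median -5.98) and in 29 of 30 conjugation genes (median -4.78). Cyp2e1 was at 1297, 1030 and 950 CPM in early and 11.1, 12.6 and 18.0 CPM in BEC (-6.29, SE 0.24, adjusted p 3.34e-11). Cyp2s1, an extrahepatic P450, was at 0.316, 0.182 and 0.567 CPM in early and 37.7, 48.1 and 53.7 CPM in BEC (6.98, SE 0.30, adjusted p 1.26e-10), and Cyp4b1 rose by 3.49. Among conjugation genes, Gstm1 was at 9308, 10825 and 9313 CPM in early and 211, 235 and 267 CPM in BEC (-5.37), and Sult1c2 was not called (-0.79, adjusted p 0.0750, sign turns with total counts), but was called with 6 libraries in the fit (-0.84), with no filter on low counts (-0.77) and without BEC replicate 3 (-1.26). Cyp2c, Cyp2d, Ugt2b and Gstm genes are near-identical families, so the level of any single member is uncertain.

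Zonation markers of both ends of the lobule were lower in BEC. Pericentral genes were lower in 11 of 14 and higher in 0 (median -4.89; 3 higher with total counts), and periportal genes were lower in 14 of 15 (median -6.17), Cdh1 being the exception. The pericentral markers Glul, Slc1a2 (0.73, adjusted p 0.102; called with no filter on low counts, at 0.75, with total counts, at 1.61, and without early replicate 1, at 1.42) and Znrf3 (0.19, adjusted p 0.154; called with total counts, at 1.06) were not called.

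Fatty acid oxidation and ketone genes were lower in all 28 (median -2.17). The change of Acadl (-0.79) turns sign with total counts. Sterol and fatty acid synthesis genes were lower in 26 of 30 and higher in 3 (median -2.54). Scd1 was at 2922, 4404 and 7195 CPM in early and 26.1, 46.4 and 123 CPM in BEC (-6.22), whereas Scd2, the desaturase of other tissues, was at 59.4, 58.1 and 148 CPM in early and 516, 414 and 453 CPM in BEC (2.38). The sterol regulator Srebf2 (0.40) and Elovl7 (0.98) were the other members higher.

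Nuclear genes of the respiratory chain were lower in all 32 (median -1.49), and mitochondrially encoded genes in all 15 (median -2.21). The mitochondrial share of early replicate 2 was 11.4%, beside which mt-Co1 was at 37107, 70639 and 32315 CPM in early and 12901, 9967 and 10098 CPM in BEC (-2.09, SE 0.25, adjusted p 4.33e-06). The other early libraries also lay above all BEC libraries for mt-Co1. Peroxisome genes were lower in 23 of 25 (median -1.52), with Uox (-6.42) and Hao1 (-6.65) at the extreme and the ether lipid gene Agps higher (1.81).

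Gluconeogenesis and glycogen genes were lower in 18 of 19 (median -4.70), with Pck1 at 2064, 1451 and 1749 CPM in early and 12.8, 14.1 and 25.2 CPM in BEC (-6.66, SE 0.32, adjusted p 3.52e-10) and Pck2 higher (1.17). Glycolysis and pentose phosphate genes were lower in 14 of 28 and higher in 11 (median -0.37; with total counts 9 lower, 16 higher and a median of 0.49). Gapdh (-2.10), Ldha (-2.58) and Tpi1 (-2.13) fell. Hk1 (8.01), Ldhb (5.50), Pkm (4.06) and G6pdx (2.37) rose. Ribosomal protein genes changed by little and together, with 35 of 38 lower (median -0.58) and, with total counts, 23 higher and 0 lower (median 0.28).

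Iron and heme genes were mostly lower in BEC, 15 of 19 for iron handling (median -1.85) and 13 of 16 for heme (median -1.45), or 14 and 9 with total counts, in animals fed a compound that disturbs heme synthesis. Hamp, the iron hormone hepcidin, was at 1139, 1319 and 1025 CPM in early and 7.90, 7.08 and 14.7 CPM in BEC (-6.87, SE 0.33, adjusted p 2.96e-10). Alas1, the first enzyme of heme synthesis, was at 657, 1101 and 2066 CPM in early and 23.8, 29.1 and 51.4 CPM in BEC (-5.19, SE 0.51, adjusted p 4.90e-07). Early replicates were uneven for Alas1, and all lay above BEC. The heme exporter Flvcr1 was higher in BEC (2.62). NRF2 target genes were lower in 13 of 20 and higher in 3 (median -1.5; 11 lower and 7 higher with total counts), with Nqo1 at a log2 fold change of -5.57 and Gpx2 higher by 2.30. Acute phase genes were lower in 16 of 21 (median -4.53; 14 lower and 4 higher with total counts), with Cd14 the member higher (2.21). Of 18 antigen presentation genes, 8 were higher and 6 lower (median 0.43; 15 higher and 3 lower with total counts), close to the 40.0% higher and 33.0% lower over all genes tested. Cd74 was at 9.49, 24.1 and 11.7 CPM in early and 336, 335 and 317 CPM in BEC (4.46), and B2m was lower by 1.65.

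Many enzymatic steps and junctions are served by a gene typical of hepatocytes and a relative used by other tissues. For 30 such pairs, the log2 ratio of the 2 genes' counts was taken within each library after adding 2 to each count, a value that no scaling factor changes. Ratios of 27 pairs shifted toward the other form in BEC with no overlap between the libraries, 0 shifted toward the hepatocyte form without overlap, and 3 overlapped. Each of the 27 had an exact 2-sided permutation p of 0.1, the smallest possible, and 0.111 after Benjamini-Hochberg adjustment over the 30 pairs, so no pair can pass 0.05 in this design.

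For pyruvate kinase, the log2 ratio of Pkm, the form of most tissues, to Pklr, the liver form, was -6.74, -6.58 and -6.93 in early and 1.03, 0.97 and 0.90 in BEC. For the connexins of gap junctions, Gja1 to Gjb1 was at -12.51, -10.06 and -9.69 in early and 0.00, 0.15 and 0.16 in BEC. Mean shifts were 7.72 and 10.86, and no early library overlapped a BEC library in either pair. For lactate dehydrogenase, Ldhb to Ldha shifted by 7.75. Shifts were also wide for Scd2 to Scd1 (8.93), Pygb to Pygl (6.93), Slc2a1 to Slc2a2 (5.43) and Cdh1 to Cdh2 (4.59). Cdh1, a periportal gene above, already exceeded Cdh2 in early (0.66, 1.18 and 0.97), so in that pair the hepatocyte form was not the main form in early.

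Some ratios shifted with the hepatocyte form lower and its partner not higher. Slc10a2 to Slc10a1 moved by 5.42 although Slc10a2 itself was lower in BEC, and Mat2a to Mat1a moved by 5.24 with Mat2a at a log2 fold change of -0.68 (the signs of both turn with total counts). In these pairs the hepatocyte forms Slc10a1 (-6.21) and Mat1a (-5.89) fell. Among overlapping pairs were Aldh1a3 to Aldh1a1 (1.42, with Aldh1a3 near the floor in both groups) and Tpm1 to Tpm3 (-0.13).

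**Figure D4:**
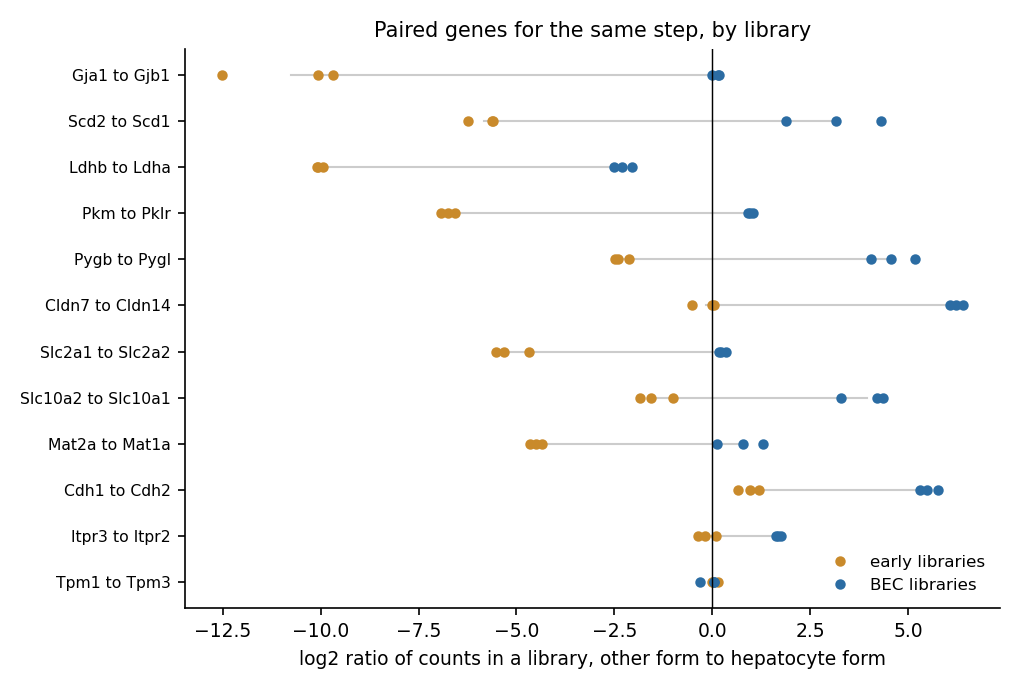
Log2 ratio of counts within a library, other form to hepatocyte form, for the gene pairs with both genes named in the text (Aldh1a3 to Aldh1a1 is not drawn), with 3 early libraries in ochre, 3 BEC libraries in blue and a grey line joining the group means. BEC libraries lie to the right of all early libraries in every pair drawn except the Tpm1 pair, which overlaps.

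A set of genes that were high in early kept about 1% of their early level in BEC. Of 2411 genes with at least 100 CPM in early, none fell below 0.7% of the early level in BEC, 174 lay between 0.7% and 1.4%, and 228 lay under 2%, with the lowest at 0.783% (Cyp2d13). Among 299 genes of the hepatocyte lists at that level, 97 lay between 0.7% and 1.4%, the median was 4.53%, and the lowest was 0.893% (Itih3). The band and the level of 100 CPM were chosen after the values were seen. Genes of lower level in early went below the band, as H19, Urad and Inhbc did above, and Spink1 and Cebpe were at the floor in BEC.

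For the 228 genes under 2%, the median level left was 0.832%, 1.02% and 1.71% in BEC replicates 1, 2 and 3, and replicate 3 was highest for 221 of them. Apoa1 (0.932% left) and Cps1 (1.28%) are in this set. In the other direction, of 1872 genes with at least 100 CPM in BEC, 54 lay below 0.7% in early and 23 below 0.1%, with few or 0 counts taken as measured. Many of the 23 were at the floor in early, where the level is only bounded. Cftr (at least 921-fold higher in BEC) and Mal (at least 379-fold) are among those that the floor does not place below 0.1%. The source of the transcripts left was not tested.

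Other hepatocyte genes kept more, with 106 of the 299 over 10% and 17 over 50%. BEC held 52.8% of the early level of Cp, 30.9% for C3, 23.7% for Ambp, 11.4% for Hnf4a, 10.4% for Gc, 7.01% for Apoe and 2.25% for Alb.

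**Figure D5:**
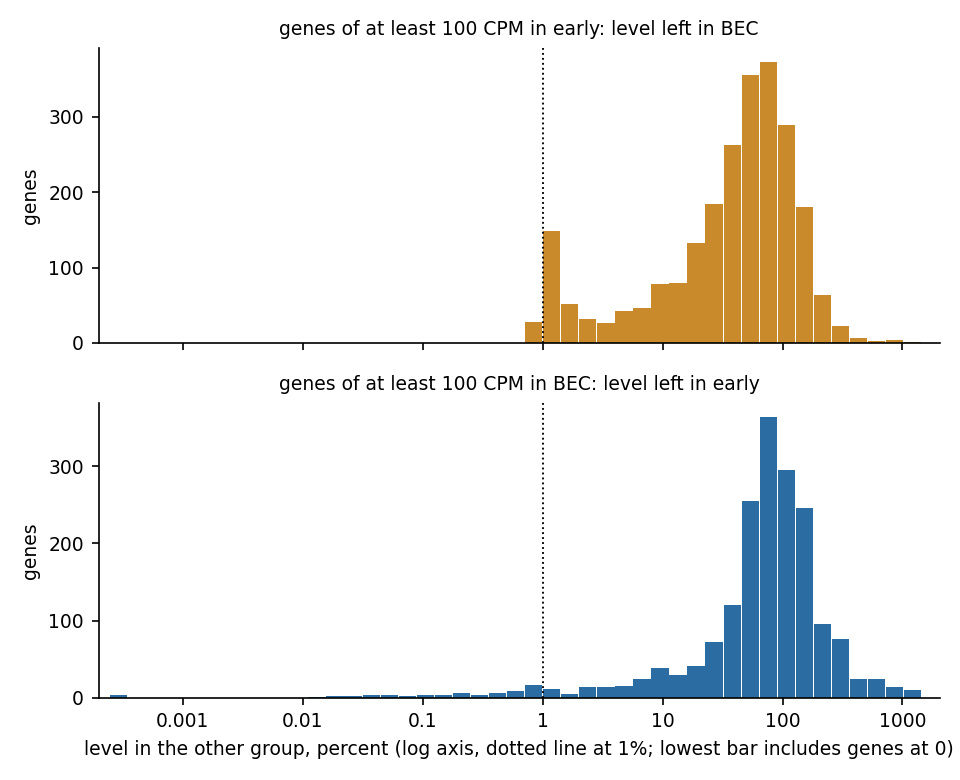
Number of genes by the level left in the other group (percent of the level in the group named in the panel title, log axis, lowest bar including genes at 0), for genes of at least 100 CPM in early (upper) and in BEC (lower), with a dotted line at 1%. The upper histogram has a second peak just above 1% and nothing below 0.7%, and the lower one has a tail drawn below 0.1%. Many genes of that tail were at the floor in early, so their place in it is not fixed.

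Marker lists of other cell types were mostly low in both groups, and their part in the results was not tested. Neutrophil, T and NK cell markers were too low to test. Endothelial markers summed to 48.6 to 58.0 CPM in early and 12.4 to 24.2 CPM in BEC (2 of 9 lower and 1 higher in BEC; 2 lower and 2 higher with total counts), and stellate cell and fibroblast markers to 113 to 330 CPM in early and 64.6 to 110 CPM in BEC (6 of 9 lower and 0 higher, median -1.23; with total counts 1 lower and 0 higher, median -0.37). Macrophage markers summed to 25.2 to 28.3 CPM in early and 133 to 159 CPM in BEC, of which Csf1r alone, the receptor for the cytokine Csf1, was at 128, 133 and 120 CPM, while Adgre1 was at 0.0963, 0.419 and 1.05 CPM. Of 8 macrophage markers tested, Csf1r was called higher and Cd68 lower (-2.01), with a median of 0.98. With total counts 3 were higher and 1 lower (median 1.84).

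Mesothelial and B cell sums rose through few genes. Of 5 mesothelial markers tested, 2 were higher in BEC, 1 lower and 2 not called (3 higher and 1 lower with total counts). Msln was at 0.633, 2.09 and 2.10 CPM in early and 195, 187 and 212 CPM in BEC (6.95), and Gpm6a at 53.2, 37.3 and 34.0 CPM in BEC (7.05). Wt1 and Upk3b were not called and stayed at or under 1.54 CPM in all 6 libraries. The Wt1 call was gained with total counts (2.08) and without early replicate 3 (3.28). Of B cell markers, the immunoglobulin light chain Igkc was at 43.0, 15.6 and 45.1 CPM in BEC, with Ms4a1 and Pax5 at 0 in all 6 libraries. Of erythroid markers, Alas2 was lower in BEC (-4.87), with the globin genes Hba-a1, Hba-a2 and Hbb-bt at 0 in all 6 libraries.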

How the data were processed

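Bulk RNA-seq counts of 3 BEC and 3 early libraries were compared, with 6 libraries of the same series in the fit. The deposited table holds raw read counts per gene for 53599 genes in 12 libraries. Reads were handled with STAR 2.7.10b, featureCounts 2.0.1 and DESeq2 on GRCm39, per the submitters' processing notes. The annotation, the strand setting and the treatment of reads with several matches are not given in the sources used here, so near-identical and overlapping genes are uncertain. A second table of counts divided by a factor per sample was not used.

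From the counts, genes were filtered with filterByExpr by group (16210 kept, 99.9% of counts), scaled by TMM and tested with edgeR 4.0.16 in R 4.3.3 by the quasi-likelihood test, all 12 libraries in 1 fit without covariates, with Benjamini-Hochberg adjustment at 0.05. The biological coefficient of variation was 14.8%. In simulated counts of 16210 genes, 100 genes were changed in BEC by 2 and 100 by 1 on the log2 scale. The fit called 85% and 55% of these changes in the right direction, and 2.78% of its 144 calls were unchanged genes. In the data 73.1% of genes were called, a far larger share than was changed in the simulation. The simulated rates therefore do not describe the BEC and early comparison. Ratios for genes with 1 to 3 counts in a library carry exact 95% intervals, and floors and intervals cover counting error only, since PCR reads without molecular identifiers are not independent molecules. Promoters came from a RefSeq table, matched by symbol, with chromosome 18 left out. Single values were compared by exact permutation tests in scipy 1.17.1.

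The members, gene lists and pairs were chosen with earlier results of these data known. Genes named are the tested members of both transcription factor lists, the 10 largest rises and falls with at least 10 CPM in each library of the higher group, no overlap and no gene model name, the 10 genes with the most counts per group, up to 4 members of highest level and up to 2 called members of largest change in each direction per list, the pairs and the sort markers. Other members were named after their values were seen. Some genes that the rule selects are not reported here. Alternatives were DESeq2 1.42.0, other scalings and filters, 6 libraries in the fit, a replicate block, a minimum fold, other cut-offs and each library left out.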

Additional observations from a re-analysis of the deposited data

How the results depend on the processing

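Of 11842 genes called, a test against a minimum 2-fold change left 6129, of which 3546 were higher and 2583 lower in BEC. With total counts only, 10669 were higher and 2624 lower, and 1024 calls were opposite in direction. None of the other alternatives gave an opposite call. DESeq2 called 11908 genes, median-of-ratios factors 11841, no filter on low counts 12457, a mean of at least 50 counts 9707, and 6 libraries in the fit 11051 (of 15257 tested). Without each library in turn, 11438 to 11682 genes were called, 6271 to 6440 higher and 5142 to 5272 lower. Genes at the floor in early numbered 710 with 1 CPM required in each BEC library and 48 with 50 CPM, and 202 to 227 with a library left out. Those at the floor in BEC numbered 117 and 0, and 4 to 19 with a library left out. Of the pairs, 27 or 28 did not overlap with a library left out, 27 with a prior count of 0.5 and 28 with 5.

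The share of the 50 most abundant genes was 27.2% in early and 13.6% in BEC with mitochondrial genes left out, 24.9% and 11% for 20 genes, and 40.6% and 20.1% for 100 genes. List medians reversed with total counts for ribosomal proteins (0.28), glycolysis (0.49) and hepatocyte transcription factors (0.11), and for macrophage markers with a library left out (-0.05 to 1.59, the lowest without BEC replicate 3). Of the other list medians under all alternatives, 579 moved by less than the spread and 93 by more.

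Among named genes called with TMM or with total counts, the log2 fold change turned positive with total counts for Acadl (0.08), Actb (0.72), Amt (0.02), Cdkn1a (0.67), Cebpd (0.66), Cfap44 (0.62), Cldn12 (0.71), Fgfr4 (0.72), Foxa2 (0.78), Grhl1 (0.68), Il18 (0.18), Itgb5 (0.25), Itpr1 (0.42), Krt18 (0.21), Krt8 (0.24), Mat2a (0.18), Notch1 (0.79), Pkp2 (0.32), Prox1 (0.73), Slc10a2 (0.01), Xbp1 (0.41) and Zfp36l1 (0.63). It also turned positive for Aqp1 (0.10), Atf3 (0.79), Krt20 (0.48), Sult1c2 (0.07) and Upk3b (0.13), which were called on neither scale. Calls of named genes were otherwise lost in 28 and gained in 38 combinations of gene and alternative, and the same in 3593. The Fos call was lost without BEC replicate 2 (0.81) or 3 (0.69) and without early replicate 1 (0.58) or 2 (0.85).

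Same-numbered BEC and early libraries deviated together with r of 0.0869, 0.0442 and 0.145, so the numbers were not taken to pair the samples. With a replicate block, 12122 genes were called (6648 higher, 5474 lower), and each library correlated best with its own number, which is a hint from the data. Among named genes the block gained the calls of Aqp1 (-0.74), Ccn1 (0.42), Lcn2 (0.66), Malat1 (0.63), Sult1c2 (-0.86), Zfp36l1 (-0.24) and Zhx2 (0.22) and lost none. The cause of these shifts was not tested. Depth limits what can be called absent to about 3 counts in a library.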

Other observations

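Gene families outside the lists above were counted after the values were seen, as a description. Motile cilium genes, which build the beating cilia of other epithelia, were higher in BEC for 29 of 32 tested, lower for 1 and not called for 2, with a median log2 fold change of 3.89. Of the 32, 11 were at the floor in early, and with those at their bound the median was 2.74. Rsph9 of the radial spoke was higher by 4.85 and Ccdc39 by 3.78, and Spag6l had 0 counts in early and was at 16.1, 13 and 10.5 CPM in BEC (at least 48.3-fold higher). The axonemal dynein gene Dnah1 went the other way, at 8.07, 9.82 and 11.7 CPM in early and 0.867, 1.54 and 0.594 CPM in BEC (-3.29). Dnai1 and Cfap44 (-0.25, sign turns with total counts) were not called. Of 38 such genes in the table, 6 were too low to test, among them the multiciliation regulators Mcidas, with 0 counts in all 6 libraries, and Ccno, with 19 counts in early and 0 in BEC.

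Potassium channel genes of the Kcn family were higher for 23 of 30 tested (of 92 in the table, the rest being too low to test) and lower for 4, among them Kcnb2, Kcnj8 and Kcnn2, with a median of 5.68. In early 16 of the 30 were at the floor, and 1 more was in BEC, so that many passed the filter only through libraries where they are high, and with these at their bound the median was 2.87. Kcnq1, a channel of secretory epithelia, had 1 count in early and a ratio of 5584 (95% exact interval 1002 to 220597), Kcnn4 had a ratio of 5079 (911 to 200615), and Kcne3, a partner subunit gene of Kcnq1, 1673 (572 to 8116). Kcnma1 had 0 counts in early and was at 26.8, 17.3 and 15.2 CPM in BEC (at least 72.4-fold higher). Wnt ligand genes were higher for 8 of 12 tested (of 19 in the table) and lower for 0, with a median of 3.30 (2.37 with the 5 members at the floor in early at their bound). Wnt7a was at 0.316, 0.364 and 0.324 CPM in early and 31.2, 40.4 and 38.1 CPM in BEC (6.75), Wnt4 was at 8.70, 7.18 and 5.58 CPM in early and 53.7, 72.9 and 69.0 CPM in BEC (3.19), and Wnt7b had a ratio of 2783 (770 to 22983).

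Zinc finger genes named Zfp were higher for 230 of 357 tested (of 423 in the table) and lower for 33, with a median of 0.65 that became 1.52 with total counts (330 higher and 3 lower). Solute carrier genes were higher for 91 of 251 tested (of 355 in the table) and lower for 117, beside 40.0% higher and 33.0% lower over all genes tested. Their median of -0.21 became 0.65 with total counts (130 higher and 84 lower).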
